A study of Mus musculus with 4 samples.

Results

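The protein phosphatase genes examined here are the mouse protein-coding genes whose symbols begin with Ppp1 to Ppp6, Ppm1 or Dusp and a number. They numbered 113 of 21883 protein-coding genes and were chosen by name alone. H3K27ac, a histone acetylation found at active promoters and enhancers, had been profiled by chromatin immunoprecipitation and sequencing in primary chondrocytes of C57Bl/6 mice grown ex vivo as micromass cultures. One culture received Cre-recombinase adenovirus and is labelled hdac3-knockout, and the other received a GFP control adenovirus and is labelled wild-type. They are called the Cre and the GFP library below, and the study asked how loss of Hdac3 alters this mark. There was 1 H3K27ac library per culture, so no difference below has a replicate check, a test or a p-value. The labels do not give the Hdac3 allele, the number or age of the animals, or the extent of the deletion, which this mark does not measure. Both cultures carry a viral transduction, and a culture without virus was not analysed here.

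Serine-threonine phosphatases reverse the work of protein kinases. PP1 and PP2A do most of this in the cell with a few catalytic subunits that draw their specificity from many regulatory subunits, while PPM phosphatases are mostly single-chain, metal-dependent enzymes. The MAP kinase phosphatases, a branch of the dual-specificity (DUSP) family, remove both phosphates that switch on ERK, JNK and p38, and several are themselves induced by those kinases as feedback. In growth cartilage, MAP kinase signalling downstream of FGF receptors helps to limit chondrocyte growth and differentiation, and calcineurin acts through NFAT factors.

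Over the genome, 13130 peaks (3264813 bp) were listed for the Cre library and 12873 (3236648 bp) for the GFP library. Depth is described by the summit pileup, the number of fragments over the highest point of a peak, whose median was 12 in both lists and whose range was 7 to 63 and 7 to 58. The genome background was 1.06 times higher in the Cre library, so a site marked alike would give it 51.5% of the fragments of both. All 6 chondrocyte marker genes checked had peaks, 70 in the Cre and 90 in the GFP list. No peak lay near the 3 endothelial or the 3 skeletal muscle markers. Of 4 blood markers only Cd68 had any, 3 GFP peaks, all beside the gene and more than 1 kb from it. In bulk chromatin, fewer cells with a mark and less mark per cell cannot be told apart.

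A peak was assigned to a phosphatase gene when it overlapped the gene body or the 10 kb on either side of it. A peak overlapping the 1 kb around either end of the gene is called a gene-end peak, and it is called a start peak where the RefSeq promoter table (GRCm38.p6) showed which end is the start. That table held 90 of the 113 genes.

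The promoter letters are shown first, because several of the start peaks described below lie over or beside them. Of 5 short motifs searched on both strands in the 250 bases before and 50 after each listed start, the cyclic AMP response element TGACGTCA, the binding site of CREB and ATF factors, was in 8 of 90 phosphatase promoters (8.89%) and in 2.54% of 17491 protein-coding promoters. The GC box GGGCGG, bound by Sp factors, was in 70.0% and 49.2%. The CCAAT box (CCAAT) was in 37.8% and 42.3%, the NRF1 core GCATGCGC in 3.33% and 3.93%, and the AP-1 element TGANTCA in 1.11% and 8.12%. The 9 response elements of the 8 genes are printed below, from GRCm38.p6, 5′ to 3′ in the direction of the gene, with the element in capitals.
Dusp1 (chr17:26508598-26508625, minus strand): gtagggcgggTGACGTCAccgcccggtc
Dusp8 (chr7:142095374-142095401, minus strand): cccgctccgcTGACGTCAcctgcccccg
Dusp8 (chr7:142095330-142095357, minus strand): tggctgcaggTGACGTCAggggcttttt
Ppp1r15a (chr7:45526263-45526290, minus strand): gcctctccggTGACGTCAgcacagcgcc
Ppp1r12c (chr7:4501732-4501759, minus strand): gtcggcgccgTGACGTCAatataccgag
Ppp2ca (chr11:52098788-52098815, plus strand): gacgctggcgTGACGTCAccacgccggg
Ppp2r2d (chr7:138846328-138846355, plus strand): cggagggggaTGACGTCAtccggcgggg
Ppm1a (chr12:72761065-72761092, plus strand): cgcagggcagTGACGTCAccgccgcccc
Ppm1d (chr11:85311159-85311186, plus strand): gcgagccgagTGACGTCAtcaggagaaa
The first capital lies at position -143 in Dusp1, -107 and -63 in Dusp8, -12 in Ppp1r15a, -69 in Ppp1r12c, -26 in Ppp2ca, -21 in Ppp2r2d, -136 in Ppm1a and -85 in Ppm1d, counted back from the listed start. No listed peak of either library overlapped any of these printed elements. Dusp1, Ppp2ca and Ppp2r2d had a start peak in the Cre list alone, Ppp1r15a had start peaks in both lists, and the other 4 had no gene-end peak. Among all 445 protein-coding genes with this element in the window, gene-end peaks were in the Cre list alone at 8.31% and in the GFP list alone at 10.3%. Among promoters without it the shares were 4.32% and 4.82%, so genes with the element had more gene-end calls of both kinds. A motif match is a description of letters and does not show that a factor is bound.

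Upstream regions of 250 bases are printed for genes that anchor the results below: Dusp1 and Ppp2r5b, each with a start peak in the Cre list alone, and Dusp11, marked alike in both. The capitals are matches to the motifs above, on either strand.
Dusp1 (chr17:26508473-26508722, minus strand): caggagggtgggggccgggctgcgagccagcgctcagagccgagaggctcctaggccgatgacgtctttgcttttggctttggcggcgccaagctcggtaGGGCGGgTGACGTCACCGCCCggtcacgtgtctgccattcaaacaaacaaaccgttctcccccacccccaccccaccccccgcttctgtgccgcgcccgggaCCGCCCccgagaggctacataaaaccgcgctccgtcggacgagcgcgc
Ppp2r5b (chr19:6235841-6236090, minus strand): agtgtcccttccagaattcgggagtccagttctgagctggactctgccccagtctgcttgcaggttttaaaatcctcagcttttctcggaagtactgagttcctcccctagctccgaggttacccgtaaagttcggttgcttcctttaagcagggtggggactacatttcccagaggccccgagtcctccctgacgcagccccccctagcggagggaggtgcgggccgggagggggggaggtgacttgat
Dusp11 (chr6:85961668-85961917, minus strand): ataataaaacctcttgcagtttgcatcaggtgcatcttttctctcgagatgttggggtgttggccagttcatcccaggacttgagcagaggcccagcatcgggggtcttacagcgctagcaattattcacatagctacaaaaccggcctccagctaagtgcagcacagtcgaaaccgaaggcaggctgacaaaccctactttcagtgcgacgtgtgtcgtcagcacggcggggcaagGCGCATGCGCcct
The Dusp1 region held the response element with a GC box on each side of it and a GC box nearer the start, and no listed peak overlapped it. The Ppp2r5b region held none of the 5 motifs and was touched by its Cre peak. It precedes a listed start inside the gene, so it lies within the annotated gene body, downstream of the outermost gene start. The bases of the Dusp11 region nearest its listed start also lie inside the annotated gene body. The Dusp11 region held 2 overlapping NRF1 cores just before that start and lay under peaks of both libraries.

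Of the 113 phosphatase genes, 59 had at least 1 peak in either list and 54 had none. Over all protein-coding genes 32.3% had a peak. Gene-end peaks were in both lists at 19 phosphatase genes (9.26% of all genes), in the Cre list alone at 10 (4.28%) and in the GFP list alone at 5 (4.78%). The excess of Cre-alone genes turned with the settings: the counts were 4 and 6 with a window of 500 bp, and 2 and 4 with at least 15 fragments. Gene-end peaks in either list were thus at 30.1% of phosphatase genes and at 18.3% of all genes. Among genes under 10 kb long the shares were 30.3% and 14.8%, from 10 to 50 kb 35.2% and 22.6%, and over 50 kb 19.2% and 16.2%. The phosphatase genes were therefore marked more often than genes at large in the 2 classes up to 50 kb. Over 50 kb, 5 of 26 phosphatase genes were marked, which is near the share of all genes. Genes are not replicates, so this carries no test.

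Sites listed for both libraries were compared by their summit fragments. There were 54 pairs of overlapping peaks at 28 phosphatase genes, with a Cre share of the fragments from 36.0% to 63.2% and a median of 50%. The exact 95% interval of every pair held the background share of 51.5%, but each interval is wide, and the pairs were there only because both libraries passed the caller's threshold, so sites of large difference are missing from them. At 17 of the 19 genes marked at an end in both lists the gene-end peaks overlapped. The exceptions were Ppp4r3a and Ppp1r27, whose peaks in the 2 lists lay side by side.

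**Figure D1:**
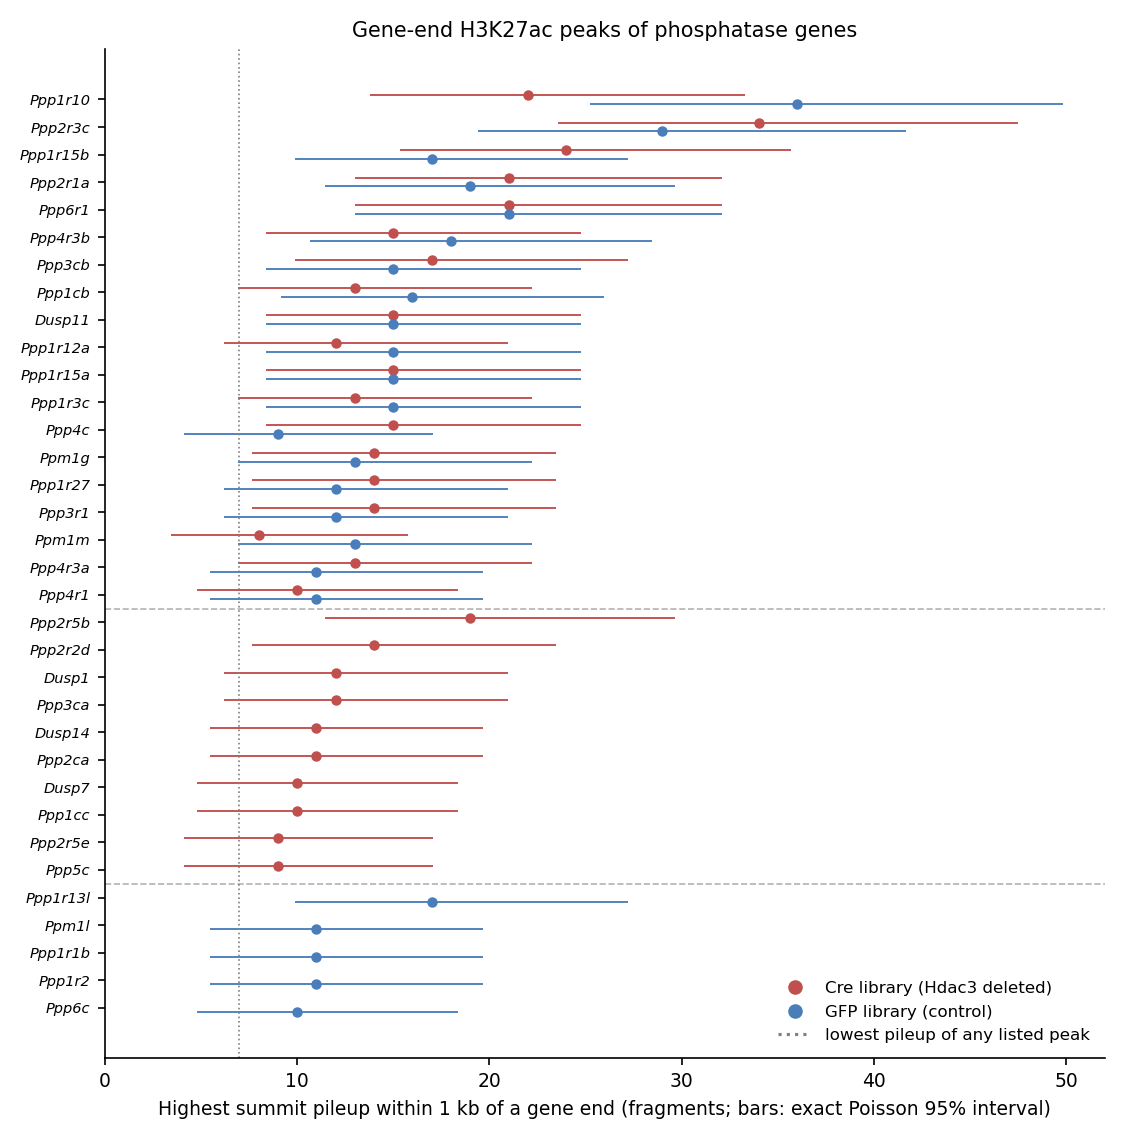
Highest summit pileup (fragments, horizontal axis) within 1 kb of a gene end for the 34 phosphatase genes with such a peak, with exact Poisson 95% intervals. Red is the Cre and blue the GFP library, 1 library each, and dashed lines part the genes marked in both lists (19), in the Cre list alone (10) and in the GFP list alone (5). The intervals of both libraries overlap at all 19 shared genes, where both had to pass the caller's threshold. The highest peaks of the lists can lie at different sites, as at Ppp1r15b, Ppp4r3a and Ppp1r27. The genes marked in 1 list alone have 9 to 19 fragments, where the lowest listed pileup is 7.

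Gene-end peaks of genes marked in 1 list alone had fewer fragments at the median than those of genes marked in both. The 10 gene-end peaks of the Cre-alone genes had 9 to 19 fragments with a median of 11, and the 6 of the GFP-alone genes had 10 to 17 with a median of 11. At the genes marked in both lists the medians were 13 and 14, with the highest at 34 and 36. Over all phosphatase peaks, 74.2% (55.4 to 88.1) of 31 Cre peaks with 15 or more fragments overlapped a GFP peak, against 25.0% (11.5 to 43.4) of 32 with 7 to 10. In the GFP list, 22 of 28 high peaks (78.6%) overlapped a Cre peak, against 26.7% of 30 low ones. Low summits were common in the lists as a whole, where 57.9% of Cre and 60.3% of GFP peaks had 12 fragments or fewer.

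The libraries differed little over the whole set and more within some branches. The phosphatase neighbourhoods contained 125 peaks of the Cre list, 33440 bp in length, and 106 of the GFP list, 24425 bp in length. The Cre list thus supplied 54.1% of them (exact 95% interval 47.5 to 60.7), beside 50.5% of all peaks. One gene, Ppm1h, carried most of the excess, and without it the counts were 101 and 97, or 51.0% (43.8 to 58.2). Peaks covered more sequence in the Cre library at 29 phosphatase genes and in the GFP library at 30 (15.9% and 16.4% of all genes). The mean folds, which the authors' caller gave within each list, were 6.48 and 6.66.

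**Figure D2:**
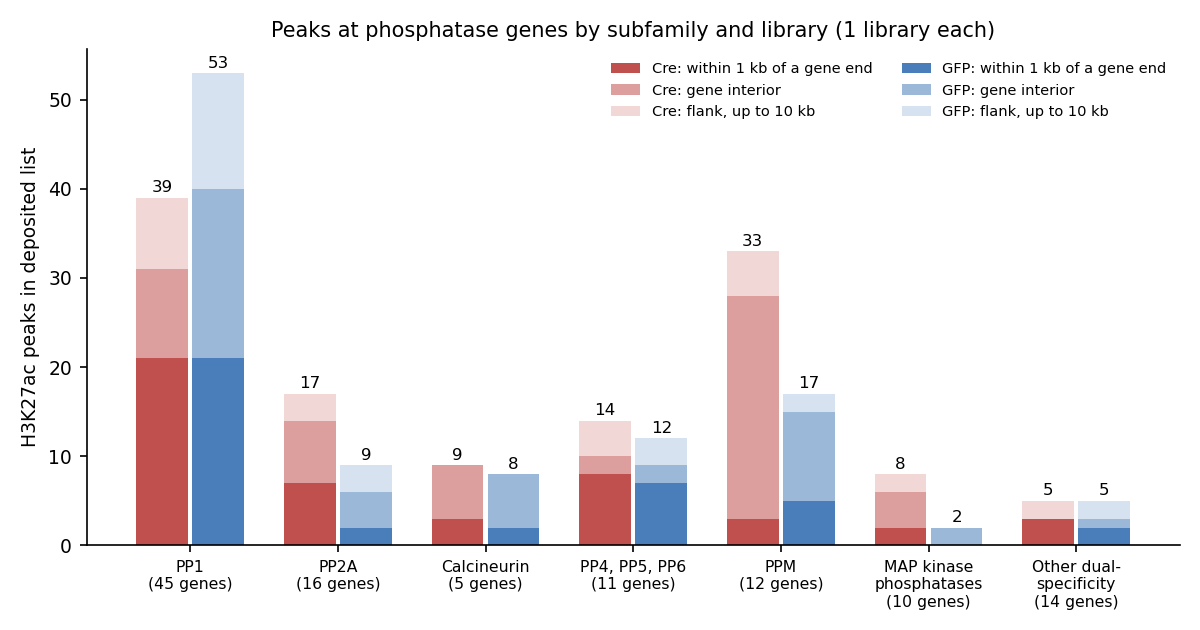
Number of deposited H3K27ac peaks (vertical axis) in the gene body and 10 kb on either side, by phosphatase subfamily, for the Cre (red) and the GFP library (blue), 1 library each. Shades part peaks within 1 kb of a gene end, in the gene interior and in the flanks, and the PPM excess of 33 over 17 peaks is mostly gene interior.

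The 4 main branches gave Cre shares of 42.4% (32.1 to 53.1) for PP1 with 39 Cre and 53 GFP peaks, 65.4% (44.3 to 82.8) for PP2A with 17 and 9, 66.0% (51.2 to 78.8) for PPM with 33 and 17, and 80.0% (44.4 to 97.5) for the MAP kinase phosphatases with 8 and 2. Only the PPM interval left out an even split at these settings, and without Ppm1h that branch had 9 and 8 peaks (52.9%, 27.8 to 77.0). The PPM interval also took in an even split with peaks within 500 bp merged (42.1 to 77.1) and with peaks outside other genes alone (49.4 to 79.9), and the PP1 interval left it out with 50 kb on each side (33.7 to 47.4). Neighbouring peaks of 1 gene are not independent, so these intervals are too narrow for a comparison of branches, and none was tested. Calcineurin genes had 9 and 8 peaks, PP4, PP5 and PP6 genes 14 and 12, and the other dual-specificity genes 5 and 5.

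The catalytic genes come first by role. Ppp1cb, one of the PP1 catalytic genes (chromosome 5, 32458848 to 32493713), had start peaks in both lists. The upstream one had 9 Cre and 15 GFP fragments and the downstream one 13 and 16. The Cre peak downstream was wider, and a further Cre peak of 10 fragments followed it, so that the gene had 1177 bp under Cre peaks and 416 bp under GFP peaks. More length and fewer fragments at the summits thus went together at this gene. Ppp1cc had a Cre start peak of 10 fragments and no GFP start peak, with 4 and 2 peaks in its neighbourhood. Ppp1ca and Ppp1ccb had no peak in either list.

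Ppp2ca, the main PP2A catalytic gene (chromosome 11, 52098824 to 52122749), had 1 peak, in the Cre list, at 52099598 to 52099882 with 11 fragments (5.49 to 19.7). Its response element is printed above, and the peak lies downstream of it. Ppp2cb, the second PP2A catalytic gene, had 1 interior peak in each list, with 10 Cre and 8 GFP fragments at separate sites. The calcineurin catalytic gene Ppp3cb had overlapping start peaks of 17 and 15 fragments. Ppp3ca, the other calcineurin catalytic gene with peaks, had 7 Cre and 6 GFP peaks over 1757 and 956 bp, with its gene-end peak of 12 fragments in the Cre list alone, and Ppp3cc had none. Ppp4c had overlapping start peaks of 15 and 9 fragments. Ppp5c had a Cre start peak of 9 and Ppp6c a GFP start peak of 10 fragments. Over the 12 catalytic genes of these 6 enzymes, Ppp1ccb included, there were 23 Cre and 16 GFP peaks. Gene-end peaks were in both lists at 3 of them (9.26% of all genes), in the Cre list alone at 4 (4.28%) and in the GFP list alone at 1 (4.78%). No catalytic one-list peak at a gene end exceeded 12 fragments.

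PP1 genes outside Ppp1ca, Ppp1cb and Ppp1cc numbered 42, among them Ppp1ccb, which has no peak and is counted above as catalytic too. They held 32 Cre and 49 GFP peaks. None of these genes was marked at an end in the Cre list alone (4.28% of all genes), and 3 were in the GFP list alone (4.78%). With 42 genes, both counts are near the shares of all genes. The highest start in the whole family by GFP fragments was Ppp1r10, which encodes PNUTS, a nuclear subunit that brings PP1 to chromatin and RNA polymerase II. Ppp1r10 (chromosome 17, 35916512 to 35932283) had 6 Cre and 9 GFP peaks over 1805 and 2087 bp. Its start summit had 22 Cre (13.8 to 33.3) and 36 GFP fragments (25.2 to 49.8), and a second summit in the gene had 28 in each. The lower start summit in the Cre library was thus not repeated at that second summit, but the sites nearer the start varied. There, GFP peaks of 22 (35917033 to 35917187) and 13 fragments overlapped no Cre peak, and a Cre peak of 12 overlapped no GFP peak. The other overlapping pairs had 13 Cre and 9 GFP, 12 and 14, and 20 and 14 fragments. The Ppp1r10 start lies within 1 kb of an end of Mrps18b, so the peaks there cannot be given to 1 gene.

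The eIF2α phosphatase genes, whose products direct PP1 to the translation factor eIF2α and so end the integrated stress response, were both marked at an end in both lists. Ppp1r15a, the stress-inducible GADD34 gene (chromosome 7, 45522917 to 45526268), carried 5 peaks in the Cre and 4 in the GFP list over 1188 and 1538 bp. Its start carried Cre summits of 13 to 15 and GFP summits of 11 to 15 fragments. At its far end, 2 Cre peaks of 15 and 12 fragments and a GFP peak of 11 lay at separate sites. A GFP start peak of 11 fragments also overlapped no Cre peak. Ppp1r15b, which encodes the constitutive partner CReP (chromosome 1, 133131166 to 133139800), had 3 Cre peaks and 1 GFP peak over 879 and 187 bp. One site gave 19 and 17 fragments, and 80 bp from that GFP peak the Cre list alone had a peak at 133130339 to 133130756 with 24 fragments (15.4 to 35.7) and a fold of 12.4. It was the highest Cre peak of the phosphatase genes without an overlapping GFP peak. Ppp1r15a ends near Plekha4 and Tulp2, so its peaks are shared ground.

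**Figure D3:**
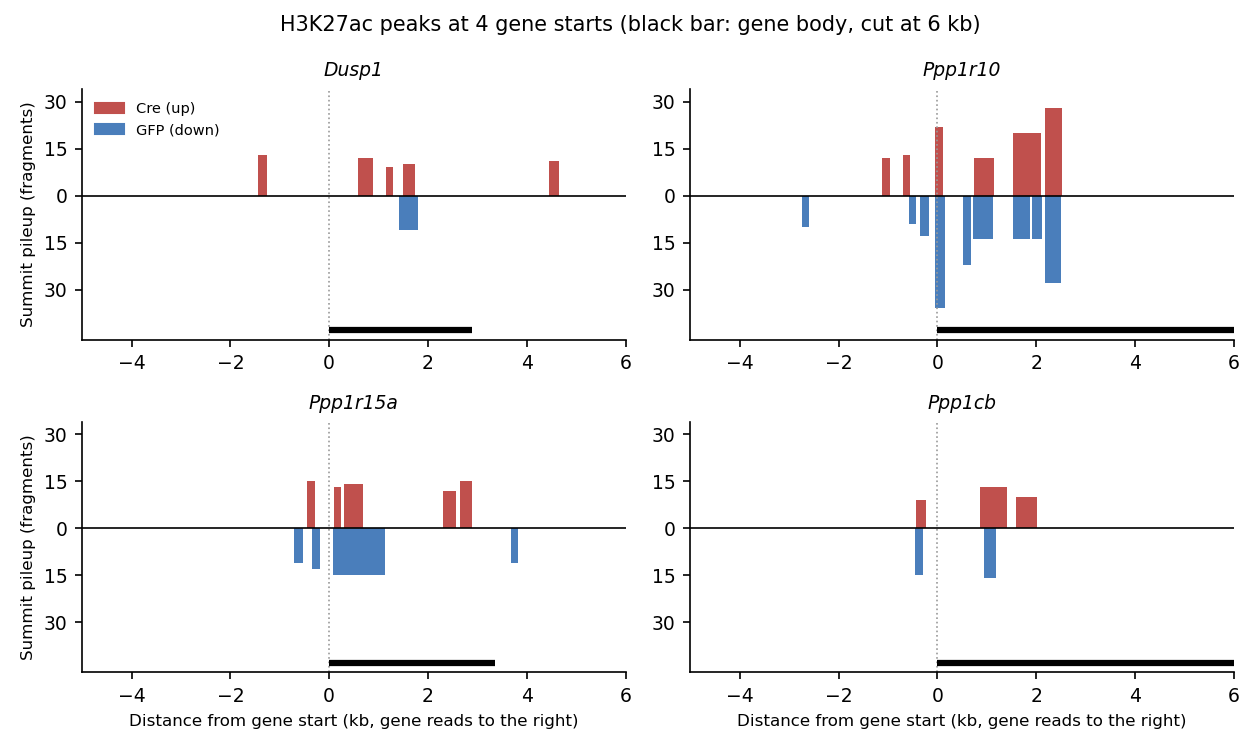
Deposited peaks around the starts of 4 phosphatase genes, as distance from the gene start (kb, the gene reads to the right) against summit pileup (fragments), with Cre peaks drawn up in red, GFP peaks drawn down in blue and gene bodies as black bars. Dusp1 shows 5 Cre peaks and 1 GFP peak, whereas Ppp1r10, Ppp1r15a and Ppp1cb have peaks of both libraries on each side of the start.

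Among glycogen-targeting subunits, which bring PP1 to glycogen synthase and phosphorylase, 3 of 7 genes had peaks (32.3% of all genes), 6 Cre and 11 GFP. Ppp1r3c carried most of them, with 4 and 6 peaks over 1408 and 1249 bp and start summits of 11 to 13 Cre and 14 to 15 GFP fragments. A GFP peak of 13 fragments within a Cre start peak of 13 fell just outside the 1 kb window, which parts these ranges. The overlapping pairs of Ppp1r3c had 13 Cre and 13 GFP, 13 and 14, 12 and 15, and 15 and 15 fragments. Ppp1r3b had 1 Cre and 2 GFP peaks, and Ppp1r3e 1 and 3, the latter all at Bcl2l2. Of the myosin phosphatase targeting subunits, which let PP1 act on myosin light chain, Ppp1r12a had overlapping start peaks of 12 and 15 fragments. Ppp1r12b had interior peaks only, and Ppp1r12c, whose response element is printed above, had none.

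PP1 inhibitor genes had 5 Cre and 9 GFP peaks over 9 genes. Ppp1r2, encoding inhibitor-2, had 1 GFP start peak of 11 fragments and no Cre peak. Ppp1r1b, encoding DARPP-32, was marked at its ends in the GFP list alone, by peaks of 11 and 10 fragments, while its 2 interior sites were in both lists. Ppp1r13l, encoding iASPP, an inhibitor of p53 (chromosome 7, 19359724 to 19378540), had the highest gene-end peak found in the GFP list alone, with 17 fragments (9.90 to 27.2) and a fold of 9.23 at 19359506 to 19359686. That peak lies within 1 kb of an end of Cd3eap. Ppp1r18, encoding phostensin, had 3 GFP peaks and no Cre peak, the highest an interior one of 20 fragments. Ppp1r9a, encoding neurabin, had 1 Cre and 3 GFP peaks in its interior over 147 and 871 bp. In these 5 genes, of which Ppp1r2 and Ppp1r1b belong to the inhibitor genes, the GFP library held more length, but each rests on 1 to 4 GFP peaks. The inhibitor gene Ppp1r14d went the other way. It had 2 Cre peaks over 502 bp and 1 GFP peak over 160 bp, all at Dnajc17 and Zfyve19.

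The PP2A scaffold gene Ppp2r1a, whose product holds the other PP2A subunits together, had overlapping peaks just before its start with 21 Cre and 19 GFP fragments. The other scaffold gene, Ppp2r1b, had no peak. The B′ (B56) subunits steer PP2A to mitotic and growth-factor targets. All 5 of their genes had a peak in some list (32.3% of all genes), 5 Cre and 5 GFP in all. Ppp2r5b (chromosome 19, 6227765 to 6236264) had the highest gene-end peak of the Cre-alone genes, at 6236070 to 6236249 with 19 fragments (11.4 to 29.7) and a fold of 9.96. It touches the upstream letters printed above, and no GFP peak lay in the neighbourhood of the gene. Ppp2r5e had a Cre gene-end peak of 9 fragments, with 3 Cre peaks and 1 GFP peak in all. Ppp2r5a and Ppp2r5d had GFP peaks only, of 9 to 11 fragments, and those of Ppp2r5d lie at Klhdc3 and Rrp36. The B′ genes thus split between the libraries gene by gene.

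The B (B55) subunit genes, which direct PP2A to cell-cycle and cytoskeletal substrates, had 6 Cre peaks and 1 GFP peak. Ppp2r2d had a Cre start peak of 14 fragments 227 bp before the listed start, inside the neighbouring gene Mapk1ip1, and an interior Cre peak of 15. Its 1 GFP peak, of 9 fragments, lay 30952 bp into the gene. Ppp2r2a had 4 Cre peaks of 10 to 12 fragments over 850 bp and no GFP peak, 2 of them in Bnip3l. Among B″ subunits, Ppp2r3c (chromosome 12, 55280809 to 55303239) had the highest Cre summit of the family. It had 34 (23.5 to 47.5) and 26 Cre fragments in 2 peaks against 29 (19.4 to 41.6) in 1 GFP peak across both, all within Prorp, which shares this start region. Gene-end peaks of PP2A genes were in the Cre list alone at 4 of 16 genes (4.28% of all genes) and in the GFP list alone at none (4.78%). With so few genes, none is near the share of all genes.

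Genes of PP4, a phosphatase of DNA repair and centrosomes, were marked in both libraries. Gene-end peaks were in both lists at 4 of 6 genes (Ppp4c, Ppp4r1, Ppp4r3a and Ppp4r3b), beside 9.26% of all genes. They were in 1 list alone at none, which with so few genes is near the shares of all genes (4.28% Cre alone, 4.78% GFP alone). Ppp4r3b had start summits of 15 and 18 fragments and Ppp4r1 gene-end summits of 10 and 11. Covered length at Ppp4c was 1832 and 666 bp, most of it in the flank at Aldoa rather than at its own start. Among PP6 genes, Ppp6r1 had 2 overlapping start sites with 21 and 21 fragments and 14 and 16. The calcineurin regulatory gene Ppp3r1 had overlapping start peaks of 14 and 12 fragments.

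MAP kinase phosphatase genes had few peaks, 8 in the Cre and 2 in the GFP list, with a median of 11 fragments in the former and 11 and 14 fragments in the latter. Dusp1, the MKP-1 gene that dampens p38 and JNK signals (chromosome 17, 26505591 to 26508472), held most of them, 5 Cre peaks and 1 GFP peak over 1039 and 385 bp. The Cre start peak, 26507595 to 26507890, had 12 fragments (6.20 to 21.0), and the other Cre peaks had 13 upstream, 10 and 9 in the gene and 11 beyond its far end. The GFP peak, 26506667 to 26507051, had 11 fragments and overlapped the Cre peak of 10. Dusp1 was thus marked in both cultures inside the gene, and its start peak was listed for the Cre library alone. It ranked 115th among 21883 genes for the excess of Cre over GFP peaks.

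Dusp7, encoding a cytoplasmic ERK phosphatase, had 1 Cre start peak of 10 fragments, and Dusp5, a nuclear ERK phosphatase gene, 1 interior Cre peak of 11. Dusp8, a JNK and p38 phosphatase gene with 2 response elements, had 1 interior Cre peak of 12. The single MAP kinase phosphatase gene with GFP peaks only was Dusp16, also a JNK and p38 phosphatase, with 14 fragments 94 bp inside a listed start. Dusp2, Dusp4, Dusp6, Dusp9 and Dusp10 had no peak in either list, among them Dusp6, the classic ERK feedback gene. None of the 10 genes had a gene-end peak in both lists, which with so few genes is near the share of all genes (9.26%). No peak of the branch reached 15 fragments.

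The other dual-specificity genes, many with substrates that are not MAP kinases, had peaks at 4 of 14 genes, near the share of all genes (32.3%). Dusp11, an RNA phosphatase gene (chromosome 6, 85942268 to 85961732), had overlapping peaks at its start with 15 fragments in each library, over the upstream letters printed above. Dusp14 had a Cre far-end peak of 11 fragments and a GFP peak of 9 in its flank. Dusp12 and Dusp15 had peaks outside the gene ends only, at the neighbouring genes Atf6 and Foxs1 among others. The other 10 genes of this branch had no peak.

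Ppm1h (chromosome 10, 122677428 to 122945795), a PPM phosphatase gene, differed most between the libraries among the 113 genes. It held 24 Cre and 9 GFP peaks over 8392 and 2871 bp, all in its interior and none at either end. Only 7 of all 21883 genes (0.032%) had at least 15 more Cre than GFP peaks, and 6 (0.0274%) had at least 15 more GFP than Cre peaks. The limit of 15 is the difference of Ppm1h itself, so its place among the 7 was fixed by that choice. Ppm1h shared 5th place among all genes in this difference with other genes. It was also among 44 genes (0.201%) with at least 20 Cre peaks and among 15 (0.0685%) with at least 3000 bp more in the Cre library. Of 989 genes of at least 200 kb, the class of Ppm1h by length, 64.7% had no peak and 21 had 20 or more Cre peaks.

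The Ppm1h peaks lay in the last part of the gene, 130.0 to 242 kb from its start in the Cre list and 210 to 236 kb in the GFP list. Within the stretch from 122885036 to 122896843, 11.8 kb long, there were 13 Cre and 5 GFP peaks over 5827 and 1767 bp. A further stretch of 8.78 kb, 122910719 to 122919495, had 7 and 4 peaks over 1865 and 1104 bp. The remaining 4 Cre peaks formed 2 pairs nearer the gene start, with no GFP peak. The libraries thus shared sites in the 2 larger stretches, and the Cre list had further peaks there and outside them.

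Ppm1h sites listed for both libraries, which are a selection by the threshold, had these summits. The strongest site had Cre summits of 22 and 26 fragments over a GFP summit of 28 (18.6 to 40.5), the next had 24 and 18, and another 24 and 14. In the far stretch the pairs ranged from 15 Cre and 9 GFP fragments to 15 and 16. The intervals of all these pairs held the background share and are wide. Of the Cre peaks, 9 had no GFP peak within 1 kb, while every GFP peak had a Cre peak within 1 kb. Of those 9 Cre peaks, 5 lay before the first shared site and 1 beyond the last. The other 3 lay in the longest stretch, past its last GFP peak. The widest Cre peak, 122892819 to 122894190, spanned 1372 bp with 19 fragments (11.4 to 29.7), and the nearest GFP peak lay 635 bp away. Median pileups were 13 and 12.

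**Figure D4:**
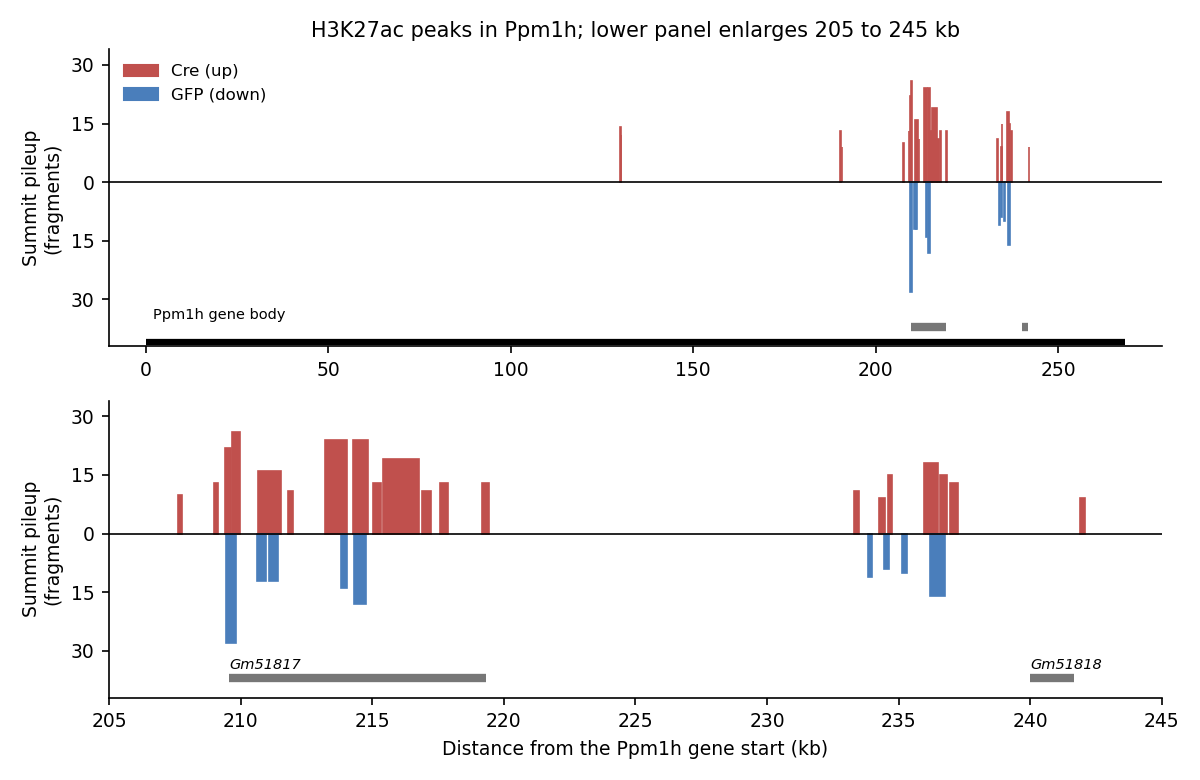
Deposited peaks across Ppm1h by distance from the gene start (kb), with summit pileup (fragments) up for the Cre and down for the GFP library, 1 library each. The lower panel enlarges the part with the main sites, grey bars are the long noncoding RNA genes Gm51817 and Gm51818, and the 24 Cre peaks run beyond the 9 GFP peaks on both sides of the shared sites.

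The main stretch coincides with Gm51817, a long noncoding RNA gene on the opposite strand (122886979 to 122896737), which held 11 Cre and 5 GFP peaks over 5533 and 1767 bp. A Cre peak of 13 fragments, 122896595 to 122896843, lay over the listed start of Gm51817, and no GFP peak did. The 250 bases before that start, printed here because the Cre peak reaches into them, held none of the 5 motifs.
Gm51817 (chr10:122896738-122896987, minus strand): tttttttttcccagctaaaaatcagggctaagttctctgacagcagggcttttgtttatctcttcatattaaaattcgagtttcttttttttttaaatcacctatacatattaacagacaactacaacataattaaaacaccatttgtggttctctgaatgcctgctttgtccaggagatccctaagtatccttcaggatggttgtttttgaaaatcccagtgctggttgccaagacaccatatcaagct
Gm51818, a second noncoding gene (122917423 to 122919095), had 1 Cre peak over its promoter window, of 9 fragments. The gene served by these sites was not tested. Mirlet7i, a let-7 microRNA gene, starts 39.8 kb beyond the end of Ppm1h and had no peak of its own.

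The other PPM genes were marked sparsely and evenly. Ppm1g, encoding a splicing-associated phosphatase (chromosome 5, 31202668 to 31220545), held 4 Cre and 3 GFP peaks. Its start peaks, 14 and 12 fragments, lay on opposite sides of the start, and its shared far-end peak, 13 and 13 fragments, is also at the end of Zfp513. Ppm1m had 1 and 2 far-end peaks. Ppm1l, which regulates stress-kinase and ceramide pathways, had a GFP gene-end peak of 11 fragments and a shared interior site of 11 and 10. Ppm1j had 1 and 1, both at Rhoc, and Ppm1n 2 and 0, both at Vasp. Ppm1a, Ppm1b, Ppm1d, Ppm1e, Ppm1f and Ppm1k had none, among them Ppm1d, the p53-induced WIP1 gene.

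**Figure D5:**
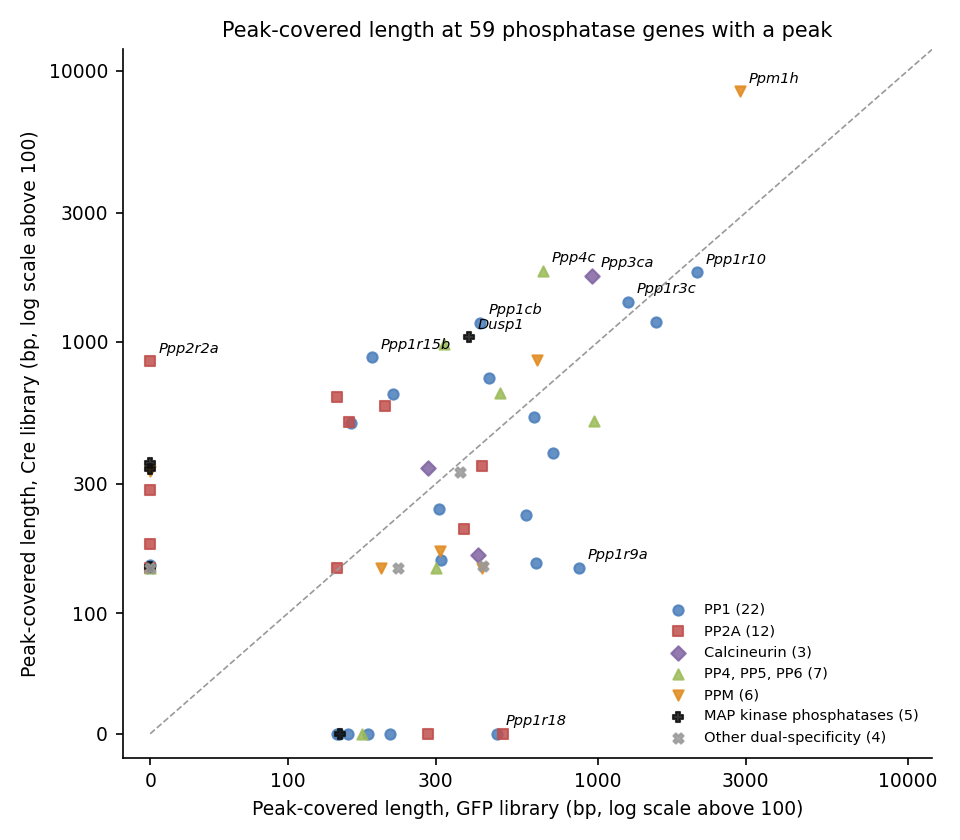
Peak-covered length (bp, logarithmic above 100) in the Cre library against the GFP library for the 59 phosphatase genes with a peak, with symbols by subfamily and the dashed line at equal lengths. The Cre length is greater at 29 genes and the GFP length at 30, and Ppm1h lies farthest out at 8392 and 2871 bp.

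Start peaks were sought within 1 kb of the outermost gene start, so this window partly sets their distance from a start. That distance was not compared with the distance at other genes. At genes with a listed start, the summits of 35 Cre and 28 GFP start peaks were a median of 631 and 657.5 bp from the nearest listed start, and 8 and 3 were within 250 bp. Of 90 genes, 15 had start peaks in both lists, 7 in the Cre list alone (Dusp1, Dusp7, Ppp1cc, Ppp2ca, Ppp2r2d, Ppp2r5b and Ppp5c) and 3 in the GFP list alone (Ppp1r13l, Ppp1r2 and Ppp6c). These counts use the outermost gene start. Ppp1cc (Cre) and Ppp1r13l (GFP) were counted with summits more than 1 kb upstream of the nearest listed start. Left out were GFP peaks of Dusp16, Ppp1r37 and Ppp1r18, with summits 94, 31 and 454 bp from a listed start. A Cre peak of Ppp1r12b, 979 bp from a listed start, was left out too. Whether the excess of 7 over 3 holds by listed starts was not tested. The 1 kb limit also matters for some genes. Ppp3r1, with a Cre summit 1005 bp into the gene, was counted. Ppp2r5a, with a GFP summit 1175 bp into the gene, was not. Neighbours also share these peaks, since 25.6% of Cre and 33.0% of GFP phosphatase peaks lay inside or at the end of another protein-coding gene, and 14 of the 59 genes had no other peak. No peak was counted for more than 1 phosphatase gene.

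The partners of these enzymes gave a mixed picture. MAP kinases and their kinases had peaks at 11 of 20 genes (32.3% of all genes), 8 Cre and 13 GFP, with gene-end peaks in both lists at 3 (Mapk6, Map2k2 and Map2k7). Of 11 ERK feedback genes 3 had peaks, a share near that of all genes, and Spry2, an inhibitor of receptor tyrosine kinase signalling, had 4 and 1 over 898 and 213 bp. Calcineurin regulators and NFAT genes had 9 Cre and 3 GFP peaks over 9 genes. Rcan1, an inhibitor of calcineurin that calcineurin itself induces, had 4 Cre peaks over 663 bp and no GFP peak. PP1 partner genes had 21 and 22 peaks, mostly in Phactr2 (12 and 15).

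PP2A partner genes are given beside the PP2A subunit genes. Gene-end peaks were in the GFP list alone at 5 of 17 (Ptpa, Ppme1, Anp32a, Strn4 and Mob4; 4.78% of all genes), in both at 2 (9.26%) and in the Cre list alone at none (4.28%), with 16 Cre and 25 GFP peaks. With so few genes, the counts in both lists and in the Cre list alone are near the shares of all genes. Strn4, encoding a striatin scaffold of the PP2A complex STRIPAK, had 4 GFP peaks over 586 bp and no Cre peak. Ptpa, the PP2A activator gene, had 9 peaks in each list over 3132 and 2778 bp. The list was chosen with results of these data known, and its difference from the subunit genes was not tested.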

How the data were processed

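The 2 H3K27ac peak lists of the series, 1 per library, were analysed; the 2 input libraries were not analysed here. Per the submitters' processing notes, bcl2fastq 1.8.4, BWA, Picard, SICER and the build mm10 were used, with no role or order given. The deposited lists have the columns of MACS2 narrow peaks, and the sources used here give neither its version nor its settings or control. Each deposited row gives a score, a fold (a ratio of summit to expected pileup, with 1 added to both), a −log10 p-value and a −log10 q-value, and the summit. In 100% of rows the deposited score equalled the −log10 q-value multiplied by 10 and cut to an integer. These are the authors' values and rank peaks within 1 list only.

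The fragments at each summit were solved from fold and −log10 p under a Poisson tail, with an expected pileup of at least 0.2, and came out whole within 0.001 in 100% of rows. The solver was tested on simulated data. Python 3.11.15, pandas 2.3.3 and scipy 1.17.1 were used. Genes and starts came from RefSeq GRCm38.p6, whose chromosomes are those of mm10, and coordinates are 1-based. The table lacks exons. Peaks overlapped when they shared 1 bp, and Ppm1h peaks were joined into stretches within 12.5 kb. Pileups carry exact Poisson and shares exact Clopper-Pearson 95% intervals. Fragments of 1 amplified library and neighbouring peaks are not independent, and the intervals hold for counting error alone. Total read numbers are unknown.

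The genes and lists were chosen with earlier results of these data known. Genes named were all catalytic and MAP kinase phosphatase genes, PPM genes with peaks, genes with a one-list gene-end peak in the upper part of its list by fold, and the leading genes of each subfamily by covered length, difference and shared pileup. Role groups, the limits of 15 or 20 peaks and other genes named were chosen after values were seen. Tried alternatives were the gene-end window, the flank, stricter peaks, merging, overlap, neighbouring genes and leaving out a leading gene.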

Additional observations from a re-analysis of the deposited data

How the results depend on the processing

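Of 53 alternative values, 47 stayed near the main one and 6 moved. A count was near by a fixed limit on its ratio to the main one. A share was near if it fell inside the main share's own 95% interval. Those intervals are wide for small branches, so few of their shares could move. The MAP kinase phosphatase share of 64.7% with 50 kb on each side, for example, counted as near 80.0%. The 47 therefore do not show that the branch shares are stable. With summits of at least 15 fragments, gene-end peaks were in both lists at 9 phosphatase genes instead of 19, in the Cre list alone at 2 instead of 10 and in the GFP list alone at 4 instead of 5, so the order of the one-list counts turned. It also turned with a window of 500 bp, which gave 4 Cre-alone and 6 GFP-alone genes. When a −log10 q-value of 5 or more was required they were 6 and 4. The GFP-alone count was 8 instead of 5 with a window of 2.5 kb. When overlap had to cover 50% of both peaks, 9 genes instead of 17 had overlapping gene-end peaks. With 50 kb on each side, the Cre share over all 113 genes was 49.7% instead of 54.1%, on the other side of an even split, which lies within both intervals. The PPM interval took in an even split with at least 15 fragments as well (42.8 to 94.5). Fewer or other peaks qualify by construction in each of these settings. No MAP kinase phosphatase peak had 15 fragments, so that share has no value there. Without Dusp1 that branch's Cre share was 75%, without Ppp2r2a the PP2A share was 59.1% and without Ppp1r10 the PP1 share was 42.9%, all chosen after seeing the data. With 1 library per culture, the spread between cultures is unknown, and a peak absent from a list may lie just under the threshold. No paired analysis was possible because each group has 1 library.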
